A study of Homo sapiens with 6 samples.

Results

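The Schlafen genes *SLFN5*, *SLFN11*, *SLFN12* and *SLFN13* were followed in H526 cells, a human small cell lung cancer (SCLC) line, before and after the cells became resistant to onvansertib, an inhibitor of the mitotic kinase PLK1. The 4 genes were chosen by symbol and are 4 of the 62710 genes analysed. Of these 4, 3 were among the 16347 genes with a mean normalized value of at least 10 that were tested, and *SLFN12* was not. One group was parental H526 (libraries 1, 2 and 3), and the other was resistant H526 (libraries 7, 8 and 9), made by growth of H526 in onvansertib raised from 10 nM to 75 nM over a year. The medium of both was RPMI-1640 containing 5% serum, and total RNA was taken from each on 3 separate occasions. The resistant libraries therefore come from 1 selected line, with no second selection beside it, and passage in culture, the year of selection and the drug itself cannot be told apart. Nothing states that the 3 extractions of a group were separate cultures, so p-values measure only the spread between these libraries, which may be technical.

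Schlafen proteins share an RNase-like core, and the longer ones, *SLFN5*, *SLFN11* and *SLFN13* among them, carry a helicase-like part behind it. Many Schlafen genes are induced by interferon, and several of the proteins restrict viruses by acting on tRNA or on transcription. *SLFN11* is known in SCLC because cells that express it are easily killed by drugs that stall DNA replication, such as topoisomerase and PARP inhibitors, and because its promoter is silenced in many tumors by DNA methylation and by the histone methyltransferase *EZH2*. *SLFN12* cuts a leucine tRNA and becomes toxic when small molecules bind it to the phosphodiesterase *PDE3A*, *SLFN13* cuts tRNA and rRNA, and *SLFN5* represses transcription of host and viral genes.

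The genes lie together on chromosome 17, in a span of 317.7 kb that also holds *SLFN12L* and *SLFN14*. In GRCh38, *SLFN5* (ENSG00000166750) occupies chr17:35243071-35273655 on the plus strand. The other members are on the minus strand: *SLFN11* (ENSG00000172716) at chr17:35350305-35373701, *SLFN12* (ENSG00000172123) at chr17:35410922-35433283 and *SLFN13* (ENSG00000154760) at chr17:35435096-35448837. No member overlaps another annotated gene. Over their coding sequences, *SLFN11* and *SLFN13* were the most alike among the members, with 87.2% identical aligned bases, and *SLFN5* and *SLFN12* had 70.5%. Of the 50-base stretches of the *SLFN11* transcript, 12.1% also occur in *SLFN13*, and 7.39% of those of *SLFN13* occur in *SLFN11*. Reads from such stretches can be split between these genes by the counting. The value of *SLFN11* was 32.4 to 82.4 times that of *SLFN13* in parental and 34.0 to 68.4 times in resistant libraries. A small misplaced share of *SLFN11* reads could therefore make up much of the low values of *SLFN13*, and how much was not tested. *SLFN5* shared no such stretch with a Schlafen gene.

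Promoter sequence is shown for the member with the highest level, *SLFN11*, for the member at 0 in nearly every library, *SLFN12*, and for *SLFN12L*, which was at 0 in all of them. The sequences come from RefSeq (GRCh38.p14), and promoters of 3 of the 7 SLFN genes were matched. Each is on the minus strand, written 5′ to 3′, and ends just before the first base of the gene. Capitals mark CG dinucleotides, the sites of DNA methylation. The stretches are chr17:35373702-35373871 for *SLFN11*, chr17:35433284-35433424 for *SLFN12* and chr17:35537679-35537928 for *SLFN12L*.
*SLFN11*: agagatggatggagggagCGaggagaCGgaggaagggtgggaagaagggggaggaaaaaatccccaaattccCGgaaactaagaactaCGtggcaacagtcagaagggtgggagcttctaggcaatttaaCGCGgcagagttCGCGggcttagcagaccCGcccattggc
*SLFN12*: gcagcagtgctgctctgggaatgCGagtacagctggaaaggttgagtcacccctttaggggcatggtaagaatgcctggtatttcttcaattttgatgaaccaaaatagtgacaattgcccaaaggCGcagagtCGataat
*SLFN12L*: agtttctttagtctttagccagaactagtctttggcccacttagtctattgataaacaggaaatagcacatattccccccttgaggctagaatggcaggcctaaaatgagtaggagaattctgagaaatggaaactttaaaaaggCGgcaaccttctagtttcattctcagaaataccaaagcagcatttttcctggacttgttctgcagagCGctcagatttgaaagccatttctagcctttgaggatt
The whole 300-base promoter window of *SLFN11* held 18 CG dinucleotides, and 44.5% of the 35116 promoters in the table held as many or more. The window of *SLFN12* held 13, close to the median of 14 over all promoters, and that of *SLFN12L* held 2, with 89.0% of promoters at this number or above. Letters of 4 known elements were searched on both strands. TTCNNNGAA, the GAS element of interferon-responsive promoters, occurred once in the *SLFN11* window and at 2 places in that of *SLFN12L*, and is found in 7.66% of promoters. CCGGAA, a core bound by ETS factors, lay inside the GAS match of *SLFN11* and occurred at 2 further places in the *SLFN12* window outside the stretch printed, and 17.3% of promoters hold it. The interferon-stimulated response element, written as GAAA, any 2 bases and GAAA again, was found in *SLFN12L*, where it overlaps a GAS match, and in 3.57% of promoters. TATAAA was in none of the 3 windows and in 11.5% of promoters. These are matches of letters and show no binding.

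Depth, estimated from the value of 1 read, was between 25712298 and 28506596 reads in parental and between 22360536 and 23277210 in resistant libraries, so that 3 reads, the limit set for a listing at 0, corresponded to values of 2.67 to 3.22. This limit covers counting error only. Of all genes tested, 37.7% differed between the groups at a limma adjusted p under 0.05, with 17.8% of the genes tested higher and 19.8% lower in the resistant group. The H526 line belongs to the SCLC type marked by the tuft cell factor *POU2F3*, and all 8 markers of this type were above 3 reads, with summed values of 72575 to 73642 in parental and 67324 to 69224 in resistant libraries. Although this sum was lower in resistant cells, 5 of the 8 were called higher and 2 lower, with a median log2 fold change of 0.27. The abundant *AVIL*, 1 of the 2 lower, had means of 20954 in parental and 12018 in resistant cells. The sum of 8 neuroendocrine markers was 7235 to 8762 in parental and 1476 to 1702 in resistant libraries, with *GRP* at 0 in all 6. The 6 leukocyte markers summed to 23.2 to 28.5 and 17.6 to 23.4, with *CD3E* at 0 and *PTPRC* under 3 reads everywhere. The 5 markers of stroma and endothelium summed to 368 to 516 in parental and 818 to 1034 in resistant libraries, with *DCN* and *PECAM1* under 3 reads throughout and *COL1A1*, *COL1A2* and *VWF* higher in resistant cells. The part of these marker shifts in the results was not tested. In RNA from bulk cultures, fewer cells that express a gene and less RNA per cell cannot be told apart.

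*SLFN11* was expressed in both groups and made up most of the signal of the family, and no Schlafen gene passed the test between parental and resistant cells. The values of *SLFN11* lay modestly higher in all resistant libraries, those of *SLFN5* did so with 1 library far above the others, *SLFN13* was low and scattered, and *SLFN12* was not detected above 3 reads in any library. By limma on log2(value + 1), with Benjamini-Hochberg adjustment over all 16347 genes, 0 of the 3 members tested had an adjusted p under 0.05, beside 37.7% of all genes. At an unadjusted p under 0.05 the number was 1, *SLFN11*, beside 47.1% of all genes. The number at an adjusted p under 0.05 was also 0 under each of the 13 other settings of this test that were tried, where *SLFN13* was left untested in 1. Of the 3 members, 2 had every resistant library above every parental library, which was so for 24.0% of all genes tested, with 25.9% apart in the other direction and 49.9% in either.

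*SLFN11*, the sensor of stalled replication forks, had normalized values of 1339, 1375 and 1114 in parental libraries 1, 2 and 3 and of 1415, 1509 and 1471 in resistant libraries 7, 8 and 9. The resistant libraries all lay above the parental ones, close to each other, and parental library 3 lay apart below the rest. The group means were 1276 ± 141 (SD, n = 3) in parental and 1465 ± 47.4 (SD, n = 3) in resistant cells, a ratio of 1.15. The log2 fold change was 0.20 with an SE of 0.09, and its 95% confidence interval reached from a fold of 1.00 to 1.33 (limma, unadjusted p = 0.0496, adjusted p = 0.106). The lower end of this interval, a fold of 1.0003, lies at the edge of no change. The interval is unadjusted and covers only the spread between these libraries, so it excludes neither a decrease nor a larger increase. By exact permutation of the libraries, two-sided, this difference had p = 0.10, the lowest that 3 against 3 libraries allow. Over the 13 alternative settings the log2 fold change was between 0.11 and 0.26 and the adjusted p between 0.0543 and 0.364. The lowest of these folds, 0.11, came from leaving out parental library 3. With 1139 to 1505 reads per library, counting error was 2.58% to 2.96% of a value, against a coefficient of variation between libraries of 11.1% in parental and 3.24% in resistant cells.

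*SLFN5*, the repressor of transcription, was at 184, 178 and 163 in parental libraries and at 189, 286 and 202 in resistant libraries 7, 8 and 9. The groups did not overlap, but resistant library 7 was barely above parental library 1, and resistant library 8 stood well above all others. The means were 175 ± 10.5 (SD, n = 3) and 226 ± 52.7 (SD, n = 3), a ratio of 1.29 in favor of resistant cells. The log2 fold change was 0.34 with an SE of 0.18, with an interval from a fold of 0.963 to 1.67 (limma, adjusted p = 0.160), and the exact permutation test again gave p = 0.10. Without resistant library 8 it was 0.16, and over all alternatives it was between 0.16 and 0.46, with adjusted p between 0.101 and 0.514. Counting error was 6.03% to 7.74% of a value. The coefficient of variation of 6.0% in parental cells was no larger than this counting error, while that of 23.4% in resistant cells was.

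*SLFN13*, the RNase of tRNA and rRNA, was at 16.3, 42.5 and 29.7 in parental and at 41.6, 22.1 and 39.7 in resistant libraries 7, 8 and 9. Both groups held a low library, parental 1 and resistant 8, and their values overlapped over most of their range. The means were 29.5 ± 13.1 (SD, n = 3) and 34.5 ± 10.8 (SD, n = 3). The log2 fold change was 0.27 with an SE of 0.41 (limma, adjusted p = 0.642), and its interval, from a fold of 0.642 to 2.25, left room for a change of either direction. The exact permutation test gave p = 0.70. Without parental library 1 the sign turned, to -0.09, and without parental library 2 or resistant library 8 it was 0.57 and 0.55. The gene rested on 18.3 to 44 reads per library, with a counting error of 15.1% to 23.4% that leaves out reads shared with *SLFN11*. Its coefficient of variation between libraries was larger, 44.5% in parental and 31.3% in resistant cells.

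*SLFN12*, the partner of *PDE3A*, had a value above 0 in resistant library 7 alone, where it was 0.60, and was listed at 0 in the other 5 libraries. This is less than the value of 1 read, and lies far under the limit of 3 reads, so no fold change is given. *PDE3A* was listed at 0 in all 6 libraries as well. *PDE3B*, the other phosphodiesterase of this family, was at 741 ± 24.5 (SD, n = 3) in parental and 648 ± 42.1 (SD, n = 3) in resistant cells (log2 fold change -0.19, adjusted p = 0.117). Of the list of 3 partners, 2 were tested and neither passed the test.

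The remaining genes with a Schlafen name were all low. *SLFN12L* was at 0 in every library. *SLFN14*, an RNase that acts at ribosomes, was at 0 in the parental libraries and at 5.96, 0 and 3.08 in the resistant ones, where the highest value stood for 5.69 reads. *SLFNL1*, a distant relative on chromosome 1 (chr1:41015589-41023237), had values of 24.8, 28.7 and 19.1 in parental and of 45.4, 23.1 and 27.0 in resistant libraries, with overlapping groups (log2 fold change 0.34, SE 0.35, adjusted p = 0.478). Its antisense RNA *SLFNL1-AS1* was at 38.3, 28.2 and 38.3 against 44.9, 58.3 and 49.6, with no overlap (adjusted p = 0.139). The use of strand in the counting is not given in the sources used here, and without it reads of these overlapping genes cannot be told apart. *SLFNL1-AS1* also overlaps *SCMH1* on the opposite strand, over 16689 bases, and *SCMH1* had a mean value of 2237 where that of *SLFNL1-AS1* was 42.9.

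Between genes, levels were compared per kilobase of the longest transcript. On this scale *SLFN11* was at 217 to 268 in parental and 275 to 294 in resistant libraries, above 66.4% of all genes tested. *SLFN5* followed at 15.5 to 17.4 and 17.9 to 27.1, above 19.3% of genes, and *SLFN13* at 1.94 to 5.06 over all 6 libraries, above 2.83%. The order *SLFN11*, *SLFN5*, *SLFN13*, *SLFN12* was therefore wider than the spread in either group, and no neighbors in it overlapped. The place of *SLFN13* above *SLFN12* may depend on how reads shared with *SLFN11* were counted. *SLFNL1*, at 4.44 to 10.5 per kilobase, overlapped with *SLFN13*. Values were also summed, without division by length, over all genes with an SLFN name, the antisense RNA *SLFNL1-AS1* included. *SLFN11* took 81.7% to 83.6% of this sum in parental and 79.5% to 82.1% in resistant libraries. *SLFN5* took 10.8% to 12% and 10.8% to 15.1%, with the highest share in resistant library 8.

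**Figure D1:**
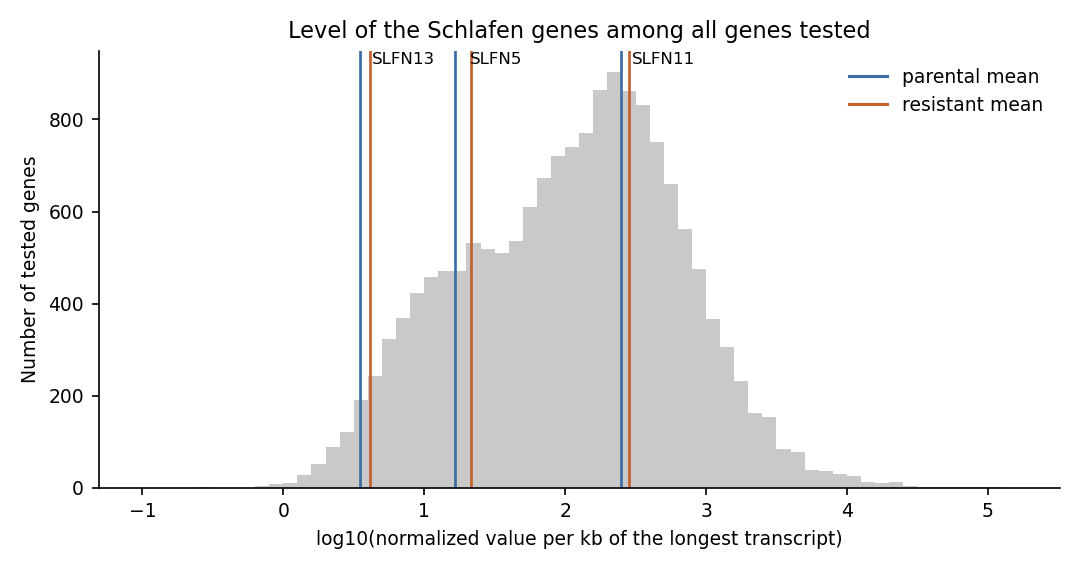
Histogram of the mean level per kilobase of all genes tested, on a log10 axis, with vertical lines at the parental and resistant means of the 3 members tested. *SLFN11* lies right of the middle of the distribution, at means of 248 and 285, *SLFN5* in its lower part and *SLFN13* near its lower end, and in each pair the lines of the groups lie close together.

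Whether the members changed by different amounts was tested on the difference of their log2 values in each library, for the 3 pairs that could be formed. Resistant minus parental, the difference was 0.14 for *SLFN5* over *SLFN11* (exact permutation p = 0.60), 0.07 for *SLFN5* over *SLFN13* (exact permutation p = 0.80) and -0.06 for *SLFN11* over *SLFN13* (exact permutation p = 0.80). The value of *SLFN5* was 0.130 to 0.147 of that of *SLFN11* in parental libraries and 0.134 to 0.189 in resistant libraries. No pair differed beyond the spread of the libraries, where 0.10 is again the lowest p that can be reached.

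The genes beside the Schlafen span held calls of both directions. Of the 10 tested genes on each side, 3 rose and 3 fell, or 30.0% of the 20 beside 37.7% of all genes tested and 34.1% of those on chromosome 17, and their median log2 fold change was -0.01, beside -0.00 over all genes tested and 0.05 over the 987 tested genes of chromosome 17. Of the 20 tested genes within 1 Mb of the span, 5 rose and 1 fell. No other tested gene lies inside the Schlafen span. The nearest gene to *SLFN5*, the long noncoding RNA ENSG00000266947 at 0.108 kb, was at 31.0, 35.5 and 27.3 in parental and at 39.8, 46.0 and 62.5 in resistant libraries, without overlap (log2 fold change 0.63, adjusted p = 0.105). *NLE1*, a ribosome assembly factor, and *RAD51D*, a recombination factor, on the same side had log2 fold changes of -0.18 and -0.15 and did not pass the test. On the other side *SNHG30*, a noncoding RNA, and *AP2B1*, a subunit of the clathrin adaptor, had log2 fold changes of -0.05 and 0.03, also without passing it. The neighbors that rose were ENSG00000270977, *LRRC37A9P* and *RDM1*, by log2 fold changes of 1.72, 1.37 and 1.14, and those that fell were *TMEM98*, *RASL10B* and *CDK5R1*, by -0.65, -0.61 and -0.37. These 6 were named after their values were seen, and the nearest of them lies 170.8 kb from the span. *TMEM98* and *CDK5R1*, the 2 called on the side of *SLFN5*, lie 2298 kb and 2752 kb from it.

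**Figure D2:**
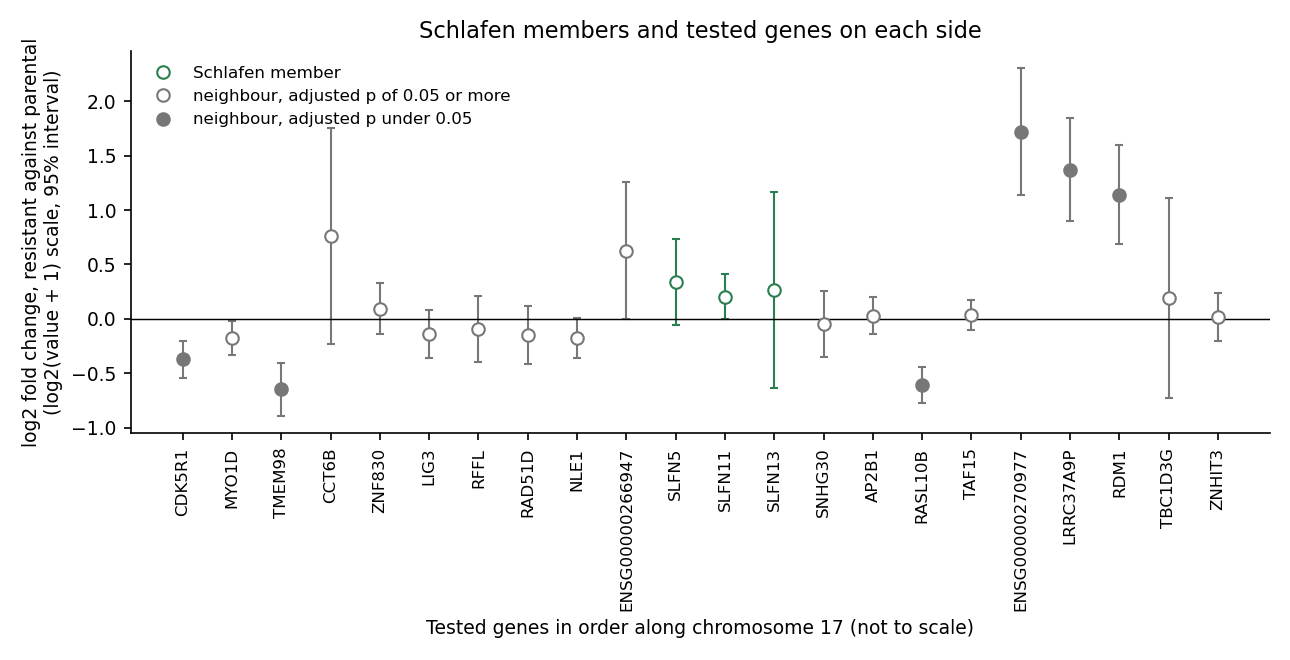
Log2 fold change, resistant against parental, with its 95% confidence interval, of the 3 tested Schlafen members (green) and of 19 of the 20 nearest tested genes on both sides, in their order along chromosome 17, not to scale. Filled points have an adjusted p under 0.05. The members lie between 0.20 and 0.34 with open points, and filled points, from -0.65 to 1.72, stand among the neighbors on both sides.

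The genes with the profile most like that of a member over the 6 libraries were sought among all genes tested, by the root mean square distance of centred log2(value + 1) profiles. Because they were picked for likeness over these libraries, the dips and peaks they share with a member follow from the choice. For *SLFN11* these were *TOM1L1*, *ANKRD13C* and *PRORP*, at distances of 0.034, 0.039 and 0.042, where the median over all genes was 0.281. Each shared with *SLFN11* a low value in parental library 3, and none of them passed the test between groups. For *SLFN5* they were *CDK5RAP3*, *CRTC1* and ENSG00000280128, at 0.057, 0.073 and 0.077 beside a median of 0.356, all with a peak in resistant library 8. *CDK5RAP3*, a cofactor of protein modification by UFM1 that also lies on chromosome 17, was higher in resistant cells (log2 fold change 0.37, adjusted p = 0.0397). Its call was lost without resistant library 8, where the log2 fold change was 0.22, and also without any of parental libraries 1, 2 and 3 and without resistant library 9, at adjusted p of 0.0587 to 0.125, where the log2 fold changes without those 4 libraries were 0.32 to 0.39. It was also lost with no filter on low values (adjusted p = 0.0534) and without the trend (adjusted p = 0.121). For *SLFN13* the nearest genes were the noncoding RNAs *ATP8B1-AS1*, *LINC02696* and *PRR7-AS1*, at 0.124, 0.151 and 0.160 beside a median of 0.559, all low in parental library 1 and in resistant library 8.

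**Figure D3:**
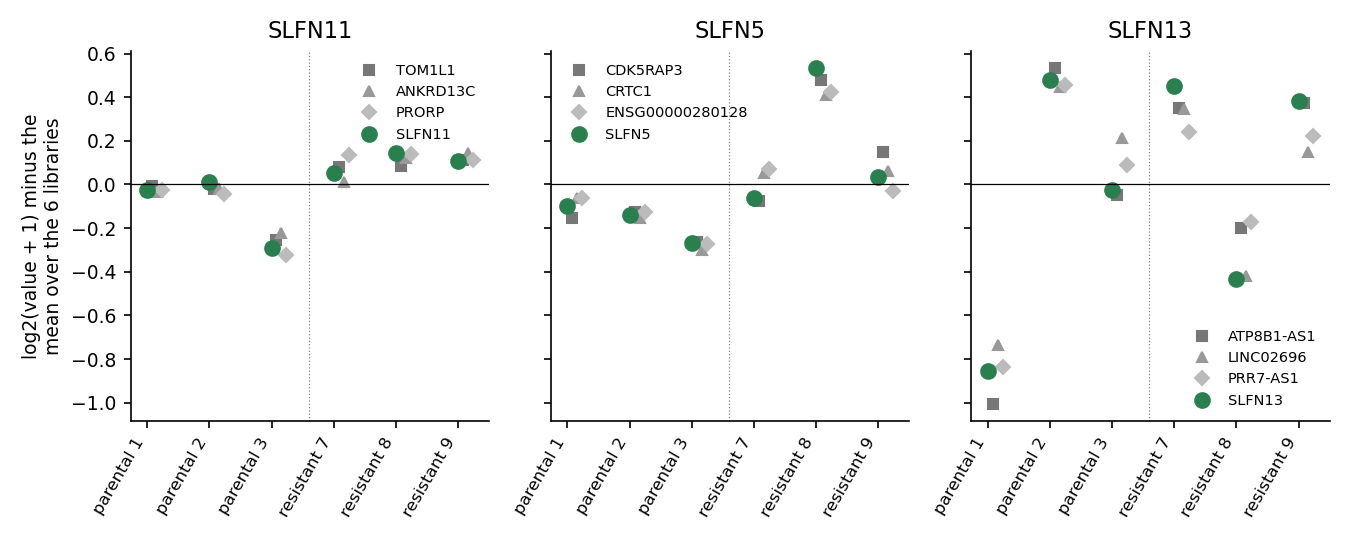
Centred log2(value + 1) values of *SLFN11*, *SLFN5* and *SLFN13* (green) and of the 3 genes nearest to each (gray) in parental libraries 1 to 3 and resistant libraries 7 to 9. The dip in parental library 3 for *SLFN11*, the peak in resistant library 8 for *SLFN5* and the low values in parental library 1 and resistant library 8 for *SLFN13* appear in the nearest genes as well. The nearest genes were picked for this likeness over the same 6 libraries.

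The genes around the Schlafen proteins in their pathways were described by 11 lists of 129 genes in all, 1 of them the other Schlafen genes above. Of the 114 tested, 30 rose and 14 fell, with a median log2 fold change of 0.03. The share called, 38.6%, was near that of all genes tested, 37.7%, of which 17.8% were higher and 19.8% lower, and the counts of single lists stand beside these shares. Chromosome 21 held 6 of the 30 that rose, and chromosome 12 held 1 of these and 3 of the 14 that fell. On chromosome 21 the median of 199 tested genes was 1.00 and 141 of them were higher, and on chromosome 12 the median of 835 genes was -0.34 and 378 were lower. Without the genes of chromosomes 12 and 21, 23 of 101 were higher and 11 lower. Chromosome 14, where 295 of 555 tested genes were higher with a median of 0.38, was kept in these counts.

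Among the genes that silence *SLFN11*, *EZH2* was lower in resistant cells. *EZH2*, the methyltransferase of the Polycomb complex PRC2, was at 5940, 5332 and 5749 in parental libraries and at 3653, 3215 and 3351 in resistant libraries. The groups lay far apart, with means of 5674 ± 311 (SD, n = 3) and 3406 ± 224 (SD, n = 3) and a log2 fold change of -0.74 (adjusted p = 3.71e-05). *UHRF1*, which recruits the maintenance DNA methyltransferase, fell by 0.35 on the log2 scale and the deacetylase *HDAC1* by 0.38. Of this list of 16 genes 5 were lower and 2 higher, or 43.8% beside 37.7% of all genes, and the median was -0.09. The 2 higher genes were *DNMT1*, by 0.23 (adjusted p = 0.0105), and *EZH1*, by 0.39 (adjusted p = 0.0283), named after their values were seen. Without the intensity trend of the test 4 of the 16 passed. *SLFN11* in the same libraries had a log2 fold change of 0.20 that did not pass the test.

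Several interferon genes differed between the groups. Of 13 genes of the interferon signal chain 6 were higher and 1 was lower, or 53.8% beside 37.7% of all genes, with a median of 0.33. The receptor genes *IFNAR1*, *IFNAR2* and *IFNGR2*, which all lie on chromosome 21, were higher by log2 fold changes of 1.27, 1.19 and 1.03, near the median of that chromosome. *IRF1*, a transcription factor of the interferon response on chromosome 5, rose from 121, 177 and 124 in parental to 224, 643 and 570 in resistant libraries. Its groups did not overlap, resistant library 7 was far below the other resistant libraries, and the log2 fold change was 1.65 (adjusted p = 0.00393). *IRF9*, a transcription factor of the type I interferon response, had a log2 fold change of 0.33 (adjusted p = 0.166). Without chromosomes 12 and 21, 3 of 9 genes of the chain were higher and 1 was lower, or 44.4%, with a median of 0.04.

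Of the 25 interferon-induced restriction factors, peers of the Schlafen genes in antiviral defense, 18 were tested. Of these 18, 10 rose and none fell, or 55.6% called beside 37.7% of all genes, of which 17.8% were higher. The median of those tested was 0.81, while 4 of the 25 were at 0 in every library. *MX1*, which blocks viral ribonucleoproteins, was at 104, 144 and 109 in parental and at 430, 494 and 485 in resistant libraries, a log2 fold change of 1.98. It lies on chromosome 21, where the median of 199 tested genes was 1.00. *ISG15*, a ubiquitin-like modifier, was at 108, 102 and 101 against 312, 309 and 329, a log2 fold change of 1.60. *ZC3HAV1*, which binds CG-rich viral RNA, was higher by 0.98. Without chromosomes 12 and 21, 7 of 14 were higher, or 50%, and the median was 0.59. The 3 tested Schlafen members had log2 fold changes of 0.20 to 0.34 and did not pass the test, and neither did 8 of the 18 tested restriction factors.

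The ETS factors held 3 higher and 0 lower genes among 7 tested, or 42.9% beside 37.7% of all genes, with a median of 0.15. The core letters they bind occur in the windows of *SLFN11* and of *SLFN12*, and in 17.3% of promoters. A link of these factors to the Schlafen genes was not tested. *ETS1* was at 319, 472 and 466 in parental and at 640, 707 and 670 in resistant libraries, a log2 fold change of 0.70 (adjusted p = 0.00447). *ETS2*, on chromosome 21, and *ELF1* were higher by 0.62 and 0.51. *FLI1*, which has been tied to *SLFN11* expression, was near the limit of 3 reads, at 0.996, 3.25 and 0 in parental and 3.02, 4.02 and 7.24 in resistant libraries, and was not tested.

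Of 13 genes for proteins that act with *SLFN11* at the replication fork, 1 was higher and 2 were lower in resistant cells. This was 23.1% beside 37.7% of all genes, and the median was -0.06. *PPP1CC*, a catalytic subunit of the phosphatase that acts on *SLFN11*, fell by 0.78 on the log2 scale, from 6774 ± 251 (SD, n = 3) to 3948 ± 134 (SD, n = 3), and lies on chromosome 12. *GMNN*, the inhibitor of the licensing factor *CDT1*, fell by 0.34 (adjusted p = 0.0180), a call lost without parental library 1 or resistant library 8 (adjusted p of 0.0613 and 0.0670). This call was also lost without the trend (adjusted p = 0.0654). *RPA2*, a subunit of the complex that coats single-stranded DNA, was higher by 0.24 (adjusted p = 0.0453), a call lost without parental library 2 or 3 or resistant library 7 or 9 (adjusted p of 0.0968 to 0.153). The call of *RPA2* was also lost with no filter on low values and without the trend (adjusted p of 0.0683 and 0.107). *RPA1*, *CDT1* and *DHX9* had log2 fold changes of -0.04, -0.10 and -0.13 and did not pass the test, although *DHX9* did without parental library 2 (adjusted p = 0.0328). With quantile normalization 5 of the 13 passed, and without the intensity trend 1.

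In the checkpoint for stalled forks 2 genes were higher and 3 lower of 15 tested, or 33.3% beside 37.7% of all genes. The median was -0.01. *TIMELESS*, which protects forks and lies on chromosome 12, fell by 0.89 on the log2 scale, from 4754 ± 165 (SD, n = 3) to 2568 ± 4.01 (SD, n = 3). *TOPBP1*, the activator of the kinase *ATR*, rose by 0.47, *RAD1* of the checkpoint clamp fell by 0.45, and *ATR* itself had 0.11 (adjusted p = 0.515). Among the targets of drugs whose effect depends on *SLFN11* 2 were higher and 1 lower of 10, or 30% beside 37.7% of all genes. The median was 0.13. *PARP2*, a poly(ADP-ribose) polymerase, was higher by 0.33 (adjusted p = 0.00686) and lies on chromosome 14, where the median of 555 tested genes was 0.38. *PARG*, which removes poly(ADP-ribose), was higher by 0.27 (adjusted p = 0.0365), and *RRM2*, a subunit of ribonucleotide reductase, fell by 0.23 (adjusted p = 0.0274).

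These last calls were lost when single libraries were left out. For *PARG* this was so without parental library 2 or 3 or resistant library 7 or 9 (adjusted p of 0.0563 to 0.133), and for *RRM2* without parental library 1 or 3 or resistant library 8 or 9 (adjusted p of 0.0546 to 0.10). The call of *PARG* was also lost with no filter on low values (adjusted p = 0.0538). Without the trend both calls were lost, at adjusted p of 0.0796 for *PARG* and 0.0975 for *RRM2*. Without parental library 3, or without resistant library 9, 1 gene of the list was called. *PARP1* and *TOP1*, the targets of PARP inhibitors and of irinotecan, had log2 fold changes of 0.13 (adjusted p = 0.0990) and -0.20 (adjusted p = 0.156). They passed the test without parental library 1 for *PARP1* (adjusted p = 0.0359) and without parental library 2 for *TOP1* (adjusted p = 0.0350).

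The genes of tRNA handling and ribosome stalling, through which several Schlafen RNases act, held 3 higher and 2 lower of 11 tested. This was 45.5% beside 37.7% of all genes, and the median was -0.06. *EIF2AK4*, the kinase that senses uncharged tRNA and stalled ribosomes, rose by 0.70 on the log2 scale, and *GCN1*, its activator on chromosome 12, fell by 0.44. *NSUN2*, a tRNA methyltransferase, fell by 0.57. Of 8 immediate early genes, which *SLFN11* opens at stalled forks, 1 was higher, or 12.5% beside 37.7% of all genes, and the median was -0.20. The higher gene was *NFKB2*, by 0.41 (adjusted p = 0.0232). This call was lost without parental library 1 or 3 or resistant library 8 or 9, leaving 0 calls without parental library 3, resistant library 8 or resistant library 9 (adjusted p of *NFKB2* 0.0604 to 0.0935). *ATF3* and *JUNB* had log2 fold changes of -0.50 (adjusted p = 0.0890) and -0.17 (adjusted p = 0.198).

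**Figure D4:**
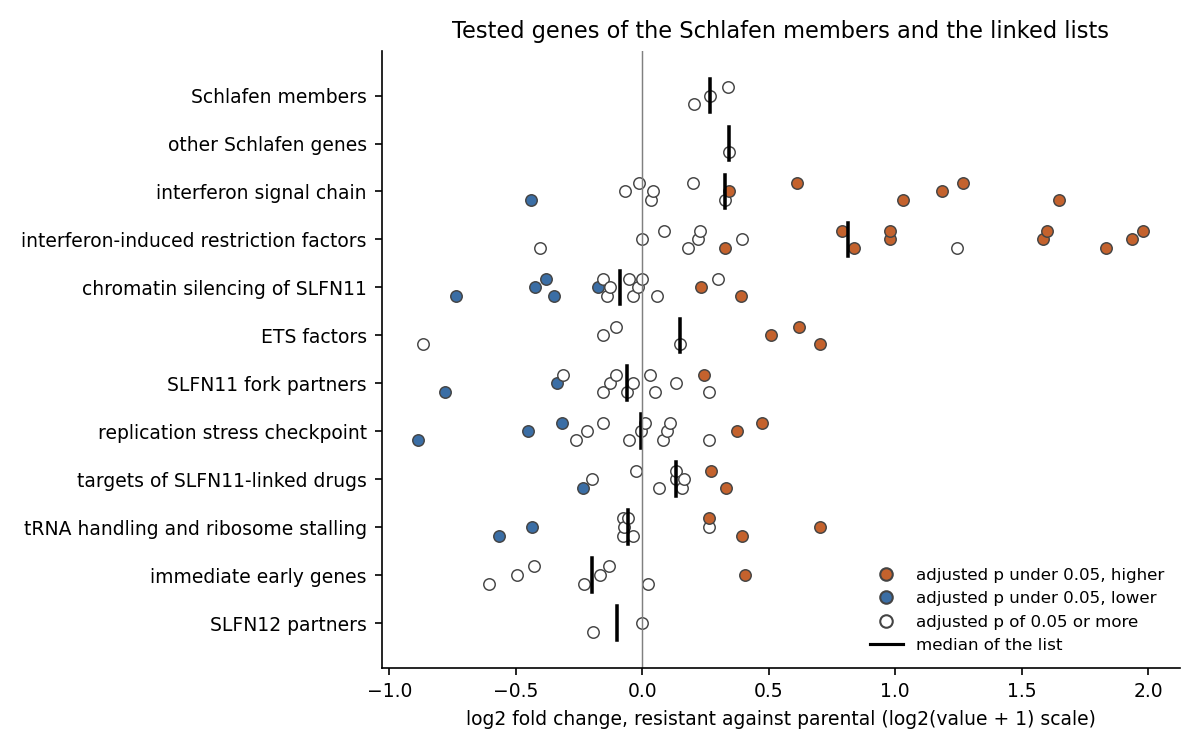
Log2 fold change of every tested gene of the Schlafen members and of each linked list, 1 point per gene, colored where the limma adjusted p was under 0.05 (orange higher, blue lower in resistant cells), with a black bar at the median of the list. The Schlafen members have open points between 0.20 and 0.34, the restriction factors reach 1.98, and the silencing list has its lowest value, that of *EZH2*, at -0.74.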

How the data were processed

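RNA-seq was available for 3 parental and 3 resistant H526 libraries, and all columns of values were used. The authors trimmed reads with Trimmomatic 0.38, quantified genes with RSEM 1.3.1 (STAR is also listed) on GRCh38, and scaled gene counts between libraries with DESeq2 1.30.0, per the submitters' processing notes and methods. The values deposited are thus a scaled signal for each gene, unfiltered. A count test had been the study's, but whole reads could not be recovered (49.5% to 62.0% of low values lay within 0.05 of a whole read), so the log scale was used. The steps gave the depth, from 22360536 to 28506596 reads. Of 62757 rows, 47 second copies of pseudoautosomal genes were left out, and 62639 of the remaining 62710 had a symbol in Gencode. Genes with a mean of at least 10 went into limma 3.58.1 under R 4.3.3 as log2(value + 1), with trend, condition as sole term and a Benjamini-Hochberg threshold of 0.05, so that fold changes of low genes are understated. Single genes and pairs also had exact two-sided permutation tests. The steps were tested on simulated data.

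The members and lists were chosen with earlier results of these data known, and lists got counts and medians but no test. The genes named were all members and other SLFN genes, the 3 genes with the smallest p in each list, a fixed set (*EZH2*, *IRF9*, *IRF1*, *PDE3A*, *ATR*, *CDT1*, *DHX9*, *TOP1*, *PARP1*, *RPA1*, *FLI1*, *ETS1*), the 3 nearest neighbors on each side, the 3 genes nearest in profile to each member, and the cell type markers, apart from a few genes that are not reported here. Alternatives changed the pseudocount (0.1 or 10), the filter (none, or a mean of 50), the scaling (TMM, coded here without precision weights, or quantile), the trend (none) and the libraries (1 left out at a time), and for the neighbors took all tested genes within 1 Mb. Python 3.11.15, numpy 2.4.6, pandas 2.3.3, scipy 1.17.1, Biopython 1.88 and matplotlib 3.10.9 were used for the rest.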

Additional observations from a re-analysis of the deposited data

How the results depend on the processing

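No paired analysis was possible because the groups share no replicate number (1 to 3 against 7 to 9). No Schlafen member passed the test under any of the alternatives run, and each of *SLFN5* and *SLFN11* kept its direction in all 13. Leaving out 1 library at a time gave log2 fold changes of 0.16 to 0.46 for *SLFN5*, 0.11 to 0.26 for *SLFN11* and -0.095 to 0.572 for *SLFN13*, with the turn of sign without parental library 1. *SLFN13* was not tested at a minimum mean of 50. The change of *SLFN11* against *SLFN13* turned from -0.06 to 0.0068 with a pseudocount of 10. The genes called over the whole table numbered 4784 to 6228 under the alternatives, the called neighbors of the Schlafen span 6 to 7, and the called genes of the linked lists 33 to 48. Leaving out chromosomes 12 and 21, chosen after seeing the data, gave 34.

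Several named genes that did not pass the test changed sign, and these passed it under none of the settings. With quantile normalization *RPA1* had a log2 fold change of 0.026, *LINC02696* of -0.14 and *PRR7-AS1* of -0.030. With 1 library left out at a time the range was -0.029 to 0.092 for *AP2B1*, -0.067 to 0.70 for *ATP8B1-AS1*, -0.30 to 0.29 for *LINC02696*, -0.18 to 0.47 for *PRR7-AS1*, -0.075 to 0.0025 for *RPA1* and -0.13 to 0.056 for *SNHG30*. The cause was not tested. Beyond the calls named above, quantile normalization brought *ATF3* (adjusted p = 0.0456), *PARP1* (adjusted p = 0.00217) and *PRORP* (adjusted p = 0.0350) past the limma threshold and raised the called drug targets to 5 of 10 and immediate early genes to 2 of 8, while without the trend 1 drug target was called. *SLFN13*, *SLFN12* and *SLFN14* had at most 44 reads in any library.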
